A study of Mus musculus with 6 samples.

Results

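The replication-dependent histone genes were taken from the array by symbol: every row of the value table whose gene symbols all belong to the histone clusters (H1f, H2ac, H2bc, H3c or H4c with a number) was a member. This gave 47 rows of 35556, of which 30 carried 1 symbol and 17 carried several. Each row is a transcript cluster, a set of probes summarised as 1 value, and it can carry the symbols of several genes. By histone type there were 8 rows of H1, 4 of H2A, 9 of H2B, 13 of H3, 12 of H4 and 1 row with a symbol of H1 and a symbol of H2B. The symbols also took in 6 genes with another role, which were the replacement linker histone H1f10, the testis variants H1f6, H1f7, H2ac1 and H2bc1 and the oocyte variant H1f8. The other 24 genes with a row of their own are replication-dependent.

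Histones package the DNA of the nucleus. H2A, H2B, H3 and H4 form the core of the nucleosome and H1 binds the linker between cores. The bulk of each is made in S phase from clustered genes without introns. The transcripts of these genes end in a stem-loop bound by Slbp instead of a poly(A) tail, and they are degraded when DNA synthesis stops. Replacement variants such as H2az1 or H3f3a are made outside S phase too.

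The arrays measured enterospheres, spheres of cells that float in the culture and grow from digested gut muscle of newborn C57BL/6 mice. They hold neural progenitors together with further cell types of the gut. Differentiating enterospheres (3 samples) were cultured for 9 days in proliferation medium and for 2 days in differentiation medium. Proliferating enterospheres (3 samples) were cultured for 11 days in proliferation medium with EGF and FGF. Each sample was made from 3 mice per the labels. Differentiation medium lacked EGF and FGF and contained ascorbic acid-2-phosphate, so the effects of withdrawal and addition cannot be told apart. The paper's methods differ from the labels in the number of pups, the dose of EGF and the lengths of the first culture phases. The labels also list the supplement B27 for proliferation medium and not for differentiation medium, whereas by the paper's methods it was given only before seeding. By those methods the arrays came from independent experiments, each with pups of a single litter, but which arrays share an experiment is not given in the labels.

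Correlations between arrays were 0.988 to 0.995 within the groups and 0.983 to 0.989 between them. The median row mean was 6.15 on the log2 scale and the median SD within a group was 0.143. Markers of the labelled tissue were present. Means of the 7 measured genes of enteric progenitors and glia were 10.50 to 10.61 on the differentiation arrays and 10.29 to 10.68 on the proliferation arrays. Of the 6 genes of macrophages all lay below the median row mean, as did 5 of 6 genes of epithelial cells and 3 of 5 of endothelial cells. Smooth muscle genes moved with the groups: 4 of 6 rose, and their means were 7.50 to 7.64 on the differentiation arrays and 6.75 to 6.78 on the proliferation arrays. Of 3 genes of interstitial cells of Cajal 1 fell, and their means were 10.06 to 10.23 in differentiation and 10.70 to 11.09 in proliferation. Neuron genes (1 of 6 rose) had means of 10.38 to 10.56 in differentiation and 9.93 to 10.43 in proliferation. Of the genes of enteric progenitors and glia 1 rose and 1 fell. Of 6 fibroblast genes 0 passed in limma, and their means were 10.55, 10.60 and 10.65 on the differentiation arrays and 11.06, 10.23 and 10.57 on the proliferation arrays. For all genes of the array, with 1 row each, 2.97% fell and 2.94% rose. A single call in a marker list this short does not stand out from that share. The part of the marker shifts in the results below was not tested. In such bulk samples fewer cells in S phase and less histone RNA per cell cannot be told apart.

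Histone transcripts were lower in differentiating enterospheres. Of the 47 rows 27 fell, 0 rose and 20 did not pass the test, with a median log2 difference of -0.70. In all 35556 rows 2.15% fell, 1.95% rose and the median was 0.03. A row fell or rose where its adjusted p was under 0.05 in limma, with Benjamini-Hochberg adjustment over all rows, and every log2 difference is differentiation minus proliferation, so that a negative value means lower in differentiation. Of the 20 rows that did not pass, 15 were lower and 5 were higher. Every differentiation array lay below every proliferation array in 37 histone rows, against 10.4% of all rows, and above them in 2, against 11.8%. At an unadjusted p under 0.05, 36 histone rows were lower, against 7.72% of all rows, and 1 was higher, against 7.92%. The methods' t-test, without correction and at 1.5-fold or more, called 28 histone rows lower and 0 higher, against 2.39% of all rows lower. Core histones accounted for 26 of the 27 decreases. The decreases dropped to 11 rows when differentiation replicate 1 was left out. They dropped to 16 without differentiation replicate 2 and to 13 without proliferation replicate 3. With each array left out in turn 11 of the 27 passed, of which 10 were H3 rows with the same 12 symbols. The counts of this paragraph take rows that share their symbols as separate rows. With the replicate number as a block in the fit, 17 histone rows fell. A comparison of 3 arrays with 3 cannot give an exact permutation p under 0.1 for a single row.

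**Figure D1:**
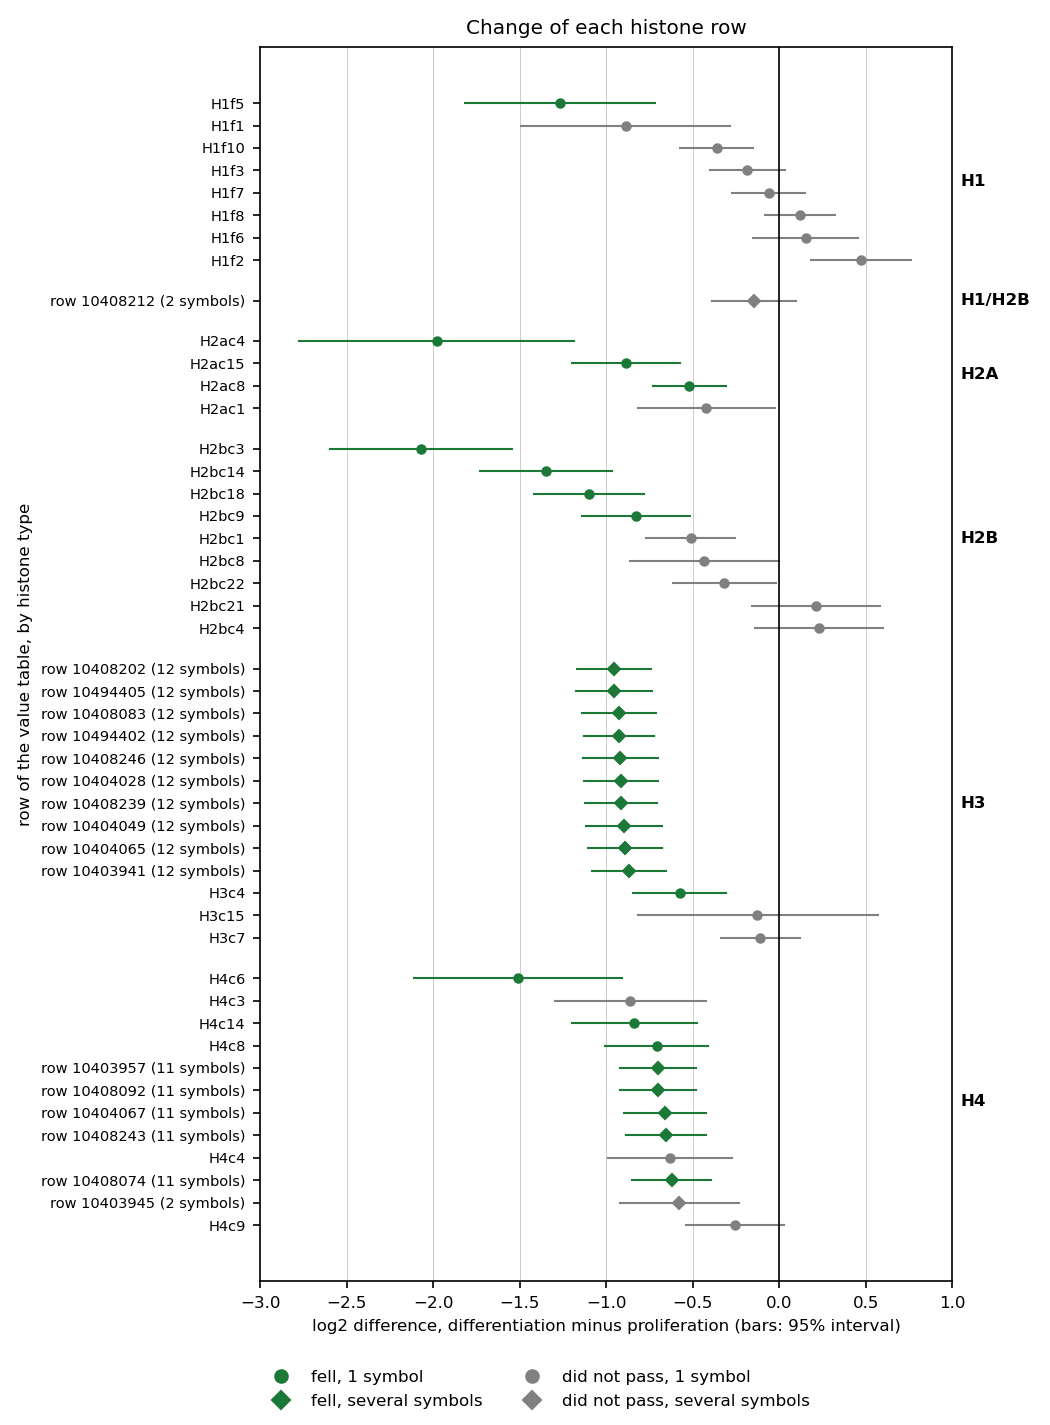
Log2 difference of the 47 histone rows, differentiation minus proliferation, on the horizontal axis, with 95% intervals from limma as bars and rows grouped by histone type on the vertical axis (3 arrays per group). Green marks the 27 rows that fell, grey the 20 that did not pass. Circles carry 1 gene symbol and diamonds several. Changes reach from -2.07 for H2bc3 to 0.47 for H1f2.

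Several rows read the same genes. Core histone genes of a type have very similar coding sequences. The same 12 symbols were carried by 10 H3 rows and the same 11 symbols by 5 H4 rows. Of these H4 rows 2 held identical values. With rows of the same symbols averaged there were 34 distinct rows, of which 14 fell and 0 rose, with a median of -0.55. Of the 30 rows with 1 symbol 12 fell and 0 rose, with a median of -0.52. Whether a row with 1 symbol also reads other genes of its type was not tested. Among 1 row for each gene of the array, 2.97% of 19938 fell and 2.94% rose. None of the 6 replacement, testis and oocyte genes fell, so the 24 replication-dependent genes held all 12 decreases. A further 9 rows mixed histone symbols with symbols outside the rule, and all 9 fell. Of these 7 were H2B rows with 14 to 15 symbols, with log2 differences of -0.94 to -0.66. The other 2 were H2A rows with 19 to 20 symbols, among them that of the H3 gene H3c4, with log2 differences of -0.58 and -0.51. With these rows added, 36 of 56 rows fell.

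Levels over the rows of a type separated the groups for H1 and for each core histone. The mean of the 4 H2A rows was 6.56, 6.51 and 6.62 on the 3 differentiation arrays, against 7.24, 7.77 and 7.53 on the proliferation arrays. The mean of the 9 H2B rows was 7.64, 7.82 and 7.74 in differentiation and 8.24, 8.59 and 8.42 in proliferation. The mean of the 13 H3 rows was 10.14, 10.26 and 10.21 in differentiation and 10.82, 11.10 and 10.99 in proliferation. For the core histones, the lowest proliferation array was therefore well above the highest differentiation array. The mean of the 12 H4 rows was 9.40, 9.45 and 9.57 in differentiation and 10.02, 10.40 and 10.18 in proliferation. The 8 H1 rows were closer, with means of 7.23, 7.28 and 7.31 in differentiation and 7.37, 7.67 and 7.53 in proliferation. These H1 rows include the replacement, testis and oocyte variants of H1 named above. Over all 47 rows the SD between arrays was 0.05 in differentiation and 0.17 in proliferation. Proliferation replicate 1 was the lowest proliferation array in 38 of 47 histone rows, against 30.9% of all rows, and proliferation replicate 2 the highest in 41, against 33.1%. Rows that share their symbols were taken as separate rows in these counts and in the means of H3 and H4. The same order of the proliferation arrays was seen in the mean of 32 genes of the DNA replication fork. That mean was 7.84, 7.98 and 7.91 in differentiation and 8.38, 8.92 and 8.56 in proliferation.

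**Figure D2:**
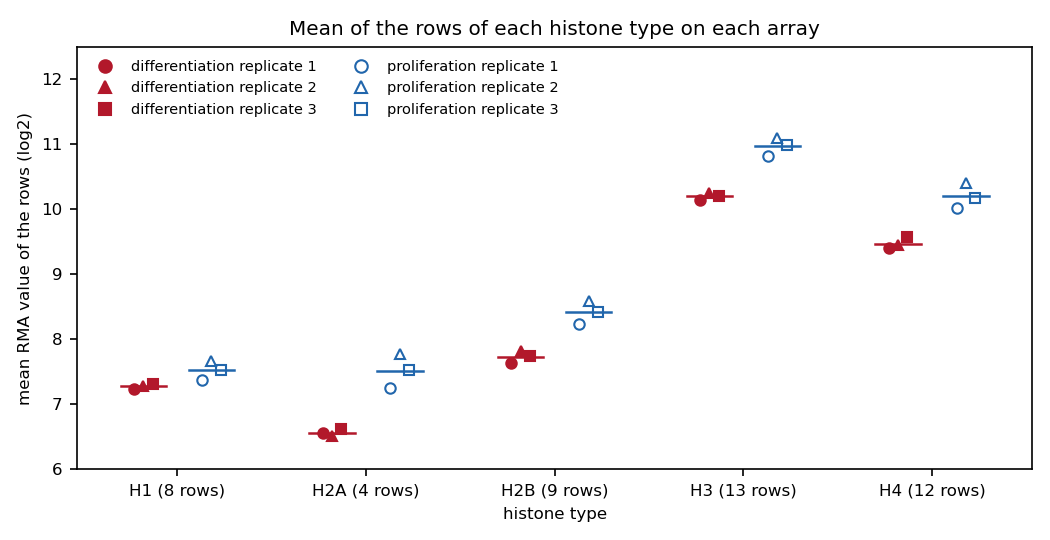
Mean RMA value (log2) of the rows of each histone type on each array, with differentiation (filled, left) and proliferation (open, right) as 3 points each and a line at the group mean. The groups do not overlap in any of these types, and proliferation replicate 2 is the highest array in each type. Heights of different types cannot be compared, since they come from different probes.

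Promoters of histone genes carry short motifs that are typical of the type. Windows from 250 bases before to 50 bases after the gene start were found in RefSeq (GRCm38.p6) for 26 of the 30 genes with a row of their own. The genes H2bc4, H2bc21, H3c7 and H4c14 were not among them. Each window was searched on both strands for the TATA box (TATAAA), the CCAAT box (CCAAT), the core of the octamer bound by Oct-1 in H2B genes (TTTGCAT), the core of the H1 box (AAACACA) and the core of the site of HiNF-P in H4 genes (GGTCCG). The windows are printed 5′ to 3′ on the strand of the gene, capitals mark the matches, and a match on the opposite strand reads ATTGG for the CCAAT box and ATGCAAA for the octamer core. Of the 92 matches in the 26 windows no pair overlapped.

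Linker histones did not move together. Of the 8 H1 rows 1 fell and 7 did not pass, 4 of them lower and 3 higher, with a median of -0.12. These rows include H1f10, H1f6, H1f7 and H1f8, which are not replication-dependent. The replication-dependent genes H1f5, H1f1, H1f3 and H1f2 had log2 differences of -1.27, -0.89, -0.18 and 0.47. H1f5 (Hist1h1b, transcript cluster 10408081), a linker histone of dividing cells, was 8.77, 8.83 and 9.03 in differentiating enterospheres, against 9.63, 10.58 and 10.22 in proliferating enterospheres. Its log2 difference was -1.27 (SE 0.23, adjusted p = 0.032 from limma), or 2.41-fold lower, and the groups did not overlap. H1f1 (Hist1h1a) was 8.21, 8.54 and 8.60 in differentiation, against 8.85, 9.86 and 9.29 in proliferation. The groups of H1f1 did not overlap either, but the proliferation arrays were spread widely and the test was not passed (log2 difference -0.89, adjusted p = 0.134). H1f2 (Hist1h1c, transcript cluster 10404059), a linker histone also found in cells that no longer divide, was 10.63, 10.81 and 10.75 in differentiation, against 10.08, 10.48 and 10.21 in proliferation. In H1f2 the differentiation arrays were the higher ones and did not overlap the proliferation arrays. Its log2 difference of 0.47 (95% interval 0.18 to 0.76) did not pass (adjusted p = 0.101), although it did without proliferation replicate 2 (adjusted p = 0.0452) and with the dim rows of the array left out (adjusted p = 0.0468). H1f3 (Hist1h1d) had a log2 difference of -0.18 (adjusted p = 0.404), in a row below the median row mean. The call of H1f5 was lost without differentiation replicate 1, 2 or 3 or proliferation replicate 2 or 3 (adjusted p from 0.051 to 0.143).

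The promoters of H1f5 and H1f2 are shown because these linker histones had the lowest and the highest log2 difference of their type. The window of H1f5 (chr13:21780576-21780875, minus strand) contained the H1 box core at -117 from the start, a CCAAT box at -53 and a TATA box at -28. The window of H1f2 (chr13:23738557-23738856, plus strand) held the H1 box core at -112 and a CCAAT box at -54 and no match to the letters TATAAA. The search took exact matches only, so TATA-like letters such as the tatatata after the CCAAT box of H1f2 were not marked.
H1f5: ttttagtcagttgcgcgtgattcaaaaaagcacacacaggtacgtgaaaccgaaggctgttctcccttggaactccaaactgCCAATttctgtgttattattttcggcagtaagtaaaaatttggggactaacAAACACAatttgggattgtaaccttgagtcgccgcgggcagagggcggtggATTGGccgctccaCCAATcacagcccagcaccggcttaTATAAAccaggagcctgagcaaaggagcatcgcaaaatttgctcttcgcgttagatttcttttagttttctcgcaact
H1f2: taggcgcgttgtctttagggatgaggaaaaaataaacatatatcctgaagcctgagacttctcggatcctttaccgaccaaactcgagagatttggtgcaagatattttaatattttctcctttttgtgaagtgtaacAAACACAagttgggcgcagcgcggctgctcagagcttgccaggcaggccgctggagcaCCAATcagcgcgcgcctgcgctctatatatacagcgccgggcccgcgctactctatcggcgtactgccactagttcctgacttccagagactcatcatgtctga

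The H1 genes outside the replication-dependent set did not pass the test. H1f10 (H1fx), the replacement linker histone, was 9.22, 9.27 and 9.12 in differentiation, against 9.49, 9.67 and 9.53 in proliferation. It was lower on each differentiation array by a small step, with a log2 difference of -0.36 (adjusted p = 0.086). With dim rows left out it did pass (adjusted p = 0.0354). The testis variants H1f6 (Hist1h1t) and H1f7 and the oocyte variant H1f8 had log2 differences of 0.15, -0.06 and 0.12. H1f0, the linker histone known from differentiated cells, was not analysed here.

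H2A genes were lower in every row. Of the 4 rows 3 fell and 1 did not pass, with a median of -0.70. H2ac4 (Hist1h2ab, transcript cluster 10404063), a core H2A, was 4.57, 4.89 and 4.78 in differentiating enterospheres, against 5.99, 7.43 and 6.75 in proliferating enterospheres. The differentiation arrays of H2ac4 lay below the median row mean of 6.15 and the proliferation arrays varied by more than 1 unit. The log2 difference was -1.98 (SE 0.34, adjusted p = 0.0246). No detection call was used, so the level in differentiation is not shown to be above background and the exact size is uncertain. H2ac15 (Hist1h2ak, transcript cluster 10408077) was 10.77, 10.80 and 10.86 in differentiation, against 11.44, 11.93 and 11.72 in proliferation. Its arrays were tightly grouped in differentiation, and its log2 difference was -0.89 (SE 0.13, adjusted p = 0.0159). H2ac8 (Hist1h2ae) was 3.68, 3.62 and 3.49 in differentiation, against 4.07, 4.09 and 4.19 in proliferation. This small step of -0.52 (adjusted p = 0.0247) came from a row among the dimmest 14.5% of the array, and no detection call was used. H2ac1 (Hist1h2aa), the testis variant, had a log2 difference of -0.42 (adjusted p = 0.284). Leaving out an array left 0 called H2A rows (differentiation replicate 1 or 2 or proliferation replicate 3), 1 (differentiation replicate 3) or 2 (proliferation replicate 1 or 2). H2ac8 was not called without any 1 of the 6 arrays (adjusted p from 0.0503 to 0.116), H2ac4 not without differentiation replicate 1, 2 or 3 or proliferation replicate 3 (adjusted p from 0.0723 to 0.118) and H2ac15 not without differentiation replicate 1 or 2 or proliferation replicate 3 (adjusted p from 0.0623 to 0.0905).

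The promoter of H2ac4 (chr13:23750838-23751137, plus strand) is shown as that of the H2A gene with the largest change. It contained the octamer core on the opposite strand, a CCAAT box on each strand, the H1 box core and a TATA box at -41.
H2ac4: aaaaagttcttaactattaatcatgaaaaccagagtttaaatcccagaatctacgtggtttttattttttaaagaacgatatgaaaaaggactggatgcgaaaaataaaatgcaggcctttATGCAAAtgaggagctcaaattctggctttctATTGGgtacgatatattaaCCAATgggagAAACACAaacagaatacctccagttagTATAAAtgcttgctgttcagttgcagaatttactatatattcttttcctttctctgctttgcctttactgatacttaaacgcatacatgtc

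H2B genes held the largest decrease of all histone rows and also 2 rows that were higher. Of the 9 rows 4 fell and 5 did not pass, with a median of -0.51. The 7 H2B rows that also carry a symbol outside the rule, all of which fell, are not counted here. H2bc3 (Hist1h2bb, transcript cluster 10404061) was 7.05, 7.39 and 7.02 in differentiating enterospheres, against 8.79, 9.65 and 9.23 in proliferating enterospheres. A gap of more than 1 unit separated the groups. The log2 difference of H2bc3 was -2.07 (SE 0.22, adjusted p = 0.00602), or 4.20-fold lower, and it was the only row with 1 histone symbol that passed with each array left out. H2bc14 (Hist1h2bm, transcript cluster 10403943) was 9.65, 9.82 and 9.94 in differentiation, against 10.85, 11.44 and 11.16 in proliferation. Here too the groups lay apart, with a log2 difference of -1.35 (SE 0.16, adjusted p = 0.0082). H2bc18 (Hist2h2bb, transcript cluster 10494407), from the cluster on chromosome 3, was 7.50, 7.73 and 7.80 in differentiation, against 8.56, 8.97 and 8.79 in proliferation. Its log2 difference was -1.10 (SE 0.13, adjusted p = 0.00877). H2bc9 (Hist1h2bh, transcript cluster 10408197) was 9.19, 9.27 and 9.49 in differentiation, against 10.01, 10.37 and 10.05 in proliferation, a log2 difference of -0.83 (SE 0.13, adjusted p = 0.0201).

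H2bc4 and H2bc21, which are known from human cells to give polyadenylated transcripts too, had positive log2 differences that did not pass the test. H2bc4 (Hist1h2bc, transcript cluster 10404053) was 10.74, 10.93 and 10.34 in differentiating enterospheres, against 10.35, 10.51 and 10.47 in proliferating enterospheres. The groups of H2bc4 overlapped, since differentiation replicate 3 lay below all proliferation arrays. Its log2 difference was 0.23 (95% interval -0.14 to 0.60, adjusted p = 0.567). H2bc21 (Hist2h2be) lay between 6.59 and 6.70 in differentiation and between 6.12 and 6.73 in proliferation. These groups overlapped as well, with a log2 difference of 0.21 (95% interval -0.16 to 0.58, adjusted p = 0.595). H2bc8 (Hist1h2bg) and H2bc22 (Hist1h2bp) had log2 differences of -0.43 (adjusted p = 0.316) and -0.32 (adjusted p = 0.281). H2bc1 (Hist1h2ba), the testis variant, was 6.21, 5.95 and 6.26 in differentiation, against 6.65, 6.57 and 6.74 in proliferation. It missed the threshold with a log2 difference of -0.51 (adjusted p = 0.053), and passed with each array centred on its median (adjusted p = 0.0452) and with the dim rows left out (adjusted p = 0.0224). Of the 4 H2B rows that fell, 1 did so without differentiation replicate 1, where H2bc14, H2bc18 and H2bc9 were lost (adjusted p = 0.0535, 0.0522 and 0.104). H2bc9 was also lost without differentiation replicate 2 or proliferation replicate 3 (adjusted p from 0.0733). The row shared by an H1 and an H2B symbol (transcript cluster 10408212) had a log2 difference of -0.15 (adjusted p = 0.58).

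The promoter of H2bc3 (chr13:23746484-23746783, plus strand) is shown as that of the row with the largest decrease. The octamer core stood at -89 between CCAAT boxes at -119 and -56, with a TATA box at -10.
H2bc3: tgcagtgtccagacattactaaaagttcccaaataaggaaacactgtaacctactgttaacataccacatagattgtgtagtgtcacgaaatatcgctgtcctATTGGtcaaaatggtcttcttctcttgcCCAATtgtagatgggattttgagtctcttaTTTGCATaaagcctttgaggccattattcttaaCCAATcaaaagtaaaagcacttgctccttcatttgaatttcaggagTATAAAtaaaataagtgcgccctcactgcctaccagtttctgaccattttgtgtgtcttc

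**Figure D3:**
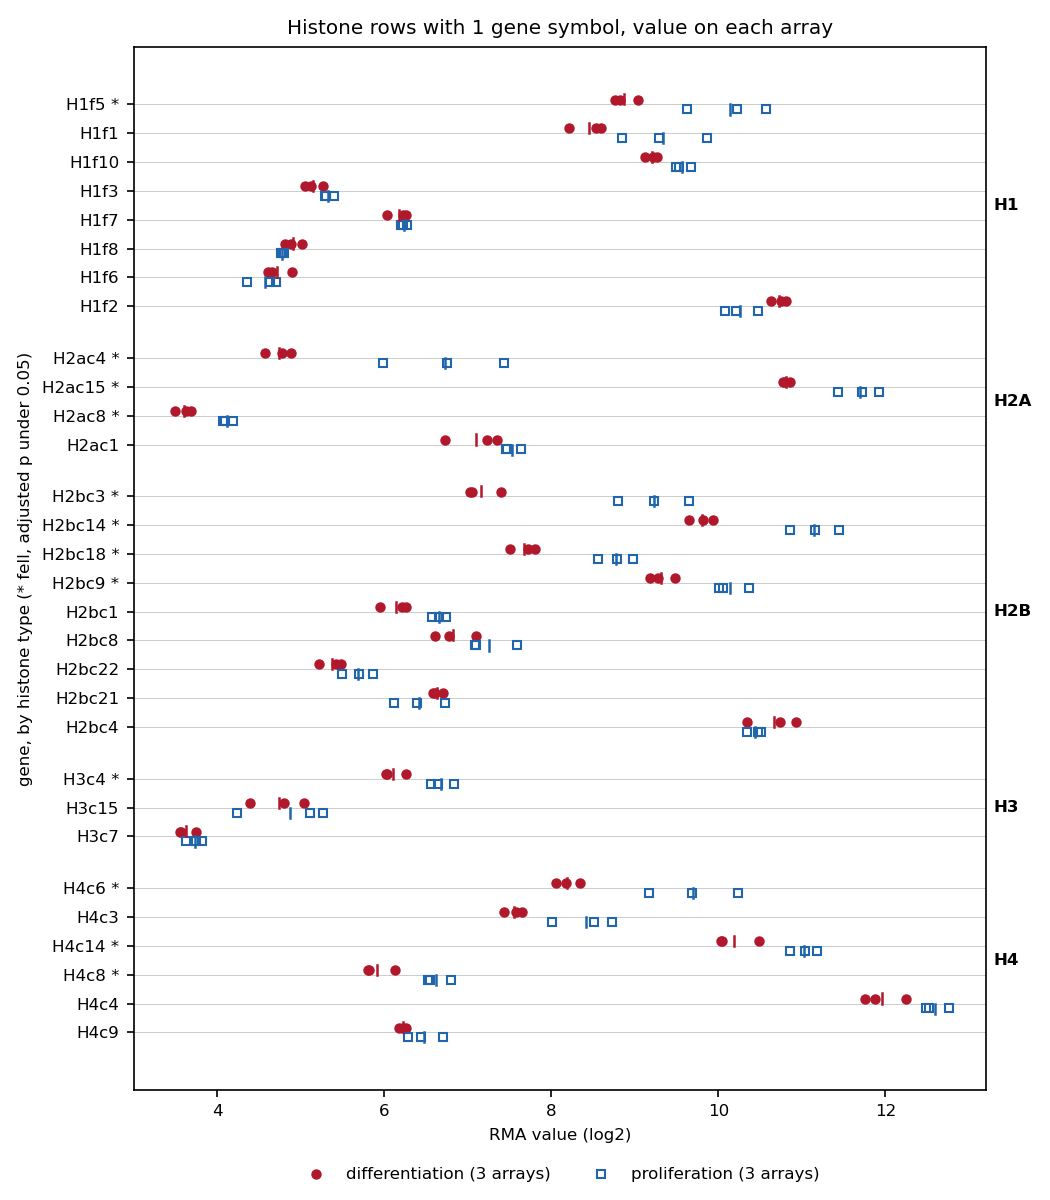
RMA value (log2, horizontal axis) of the 30 histone rows with 1 gene symbol on each array, by histone type (vertical axis), with differentiation arrays as filled circles above and proliferation arrays as open squares below, and a tick at each group mean. Stars mark the 12 genes that fell. H2bc3 and H2ac4 show the widest gaps between the groups, and H1f2 is the one replication-dependent gene whose differentiation arrays all lie to the right of its proliferation arrays.

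The 10 H3 rows that share their symbols fell, while of 3 H3 genes with a row of their own 1 fell. Of the 13 rows 11 fell and 2 did not pass, with a median of -0.91. The 10 rows with the same 12 symbols had log2 differences of -0.96 to -0.87 (adjusted p from 0.00437 to 0.00576). Averaged into 1 row, they were 11.79, 11.83 and 11.83 in differentiating enterospheres, against 12.61, 12.85 and 12.73 in proliferating enterospheres. The averaged log2 difference was -0.92 (SE 0.09, adjusted p = 0.00504), and all 10 rows passed with each array left out. These rows lay at percentile 98.7 or above by row mean, and they count as 1 measurement of the H3 transcripts that they share. H3c4 (Hist1h3d, transcript cluster 10404038), the only H3 gene with a row of its own that fell, was 6.02, 6.26 and 6.04 in differentiation, against 6.56, 6.84 and 6.65 in proliferation. Its log2 difference of -0.58 (SE 0.11, adjusted p = 0.0408) was lost without any 1 of the 6 arrays (adjusted p from 0.0539 to 0.184). H3c15 (Hist2h3c2) and H3c7 (Hist1h3f), in rows among the dimmest 29.7% and 11.8%, had log2 differences of -0.13 (95% interval -0.82 to 0.57, adjusted p = 0.89) and -0.11 (adjusted p = 0.666). The sign of H3c15 turned without differentiation replicate 1 (0.05) or proliferation replicate 3 (0.07).

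H4 was lower on every differentiation array in every row. Of the 12 rows 8 fell and 4 did not pass, with a median of -0.68. H4c6 (Hist1h4f, transcript cluster 10408200) was 8.17, 8.05 and 8.34 in differentiating enterospheres, against 9.17, 10.23 and 9.69 in proliferating enterospheres. It had the largest decrease of the H4 rows, with a log2 difference of -1.51 (SE 0.25, adjusted p = 0.0238), or 2.85-fold lower. H4c14 (Hist2h4, transcript cluster 10500333), from the cluster on chromosome 3, was 10.04, 10.03 and 10.48 in differentiation, against 10.85, 11.18 and 11.03 in proliferation. Its log2 difference was -0.84 (SE 0.15, adjusted p = 0.0316). H4c8 (Hist1h4h, transcript cluster 10404024) was 5.82, 5.80 and 6.12 in differentiation, against 6.53, 6.79 and 6.55 in proliferation, a log2 difference of -0.71 (SE 0.13, adjusted p = 0.0288). The 5 rows with the same 11 symbols, averaged, were 11.71, 11.77 and 11.85 in differentiation, against 12.33, 12.58 and 12.42 in proliferation. These shared rows moved by about the same step, with log2 differences of -0.70 to -0.62 and an averaged value of -0.67 (SE 0.10, adjusted p = 0.0144).

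The other H4 genes were lower without passing the test. H4c3 (Hist1h4c) was 7.44, 7.58 and 7.64 in differentiation, against 8.01, 8.73 and 8.51 in proliferation, with a log2 difference of -0.86 (adjusted p = 0.0548). H4c4 (Hist1h4d) was 11.87, 12.25 and 11.75 in differentiation, against 12.49, 12.77 and 12.52 in proliferation, with a log2 difference of -0.63 (adjusted p = 0.0786). Neither overlapped between the groups, and each passed with 1 array left out, H4c3 without proliferation replicate 1 (adjusted p = 0.0118) and H4c4 without differentiation replicate 2 (adjusted p = 0.0442). H4c9 (Hist1h4i) had a log2 difference of -0.26 (adjusted p = 0.375), and transcript cluster 10403945, with 2 H4 symbols, one of -0.58 (adjusted p = 0.0901). Leaving out differentiation replicate 1 or proliferation replicate 3 left 0 called H4 rows, and leaving out differentiation replicate 2 left 3. H4c6, H4c14 and H4c8 were each lost without differentiation replicate 1 or 2 or proliferation replicate 3 (adjusted p up to 0.11, 0.144 and 0.14). H4c6 was also lost without differentiation replicate 3 (adjusted p = 0.0595), H4c14 without proliferation replicate 2 (adjusted p = 0.0859) and H4c8 without proliferation replicate 1 or 2 (adjusted p = 0.0541 and 0.0689).

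The promoter of H4c6 (chr13:23551619-23551918, minus strand) is shown as that of the H4 gene with the largest decrease. The HiNF-P core stood at -46, and the letters TATAAA were found only at the far end of the window. Letters such as the tatatata after the HiNF-P core were not marked, since only exact matches were searched for.
H4c6: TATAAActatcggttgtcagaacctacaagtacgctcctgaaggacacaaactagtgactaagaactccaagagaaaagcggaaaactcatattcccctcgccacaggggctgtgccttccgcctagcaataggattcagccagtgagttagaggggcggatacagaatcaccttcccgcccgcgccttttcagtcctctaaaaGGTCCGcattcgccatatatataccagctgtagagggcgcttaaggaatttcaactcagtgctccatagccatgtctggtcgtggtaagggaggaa

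Across the 26 windows, the CCAAT box was found in 21 (80.8%, against 37.4% of the 32851 windows of the mouse table) and the TATA box in 15 (57.7%, against 13.6%). The octamer core was in 5 of 7 H2B and 3 of 4 H2A windows and in 9 of all 26, against 4.63% of all windows. The HiNF-P core was in 5 of 5 H4 windows, at -47 to -5, and in 7 of all 26, against 8.25%. The H1 box core was in 4 of 8 H1 windows and in 8 of all 26, against 7.18%. H2ac8 and H2bc8, and likewise H2ac1 and H2bc1, are divergent neighbours whose windows share 279 and 220 bases, so their matches are partly the same sites. Set side by side, genes that fell and genes that did not pass held the CCAAT box in 9 of 11 and 12 of 15, the TATA box in 7 of 11 and 8 of 15, the octamer core in 5 of 11 and 4 of 15, the H1 box core in 3 of 11 and 5 of 15 and the HiNF-P core in 3 of 11 and 4 of 15. These are counts of letters in a window, with no test.

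**Figure D4:**
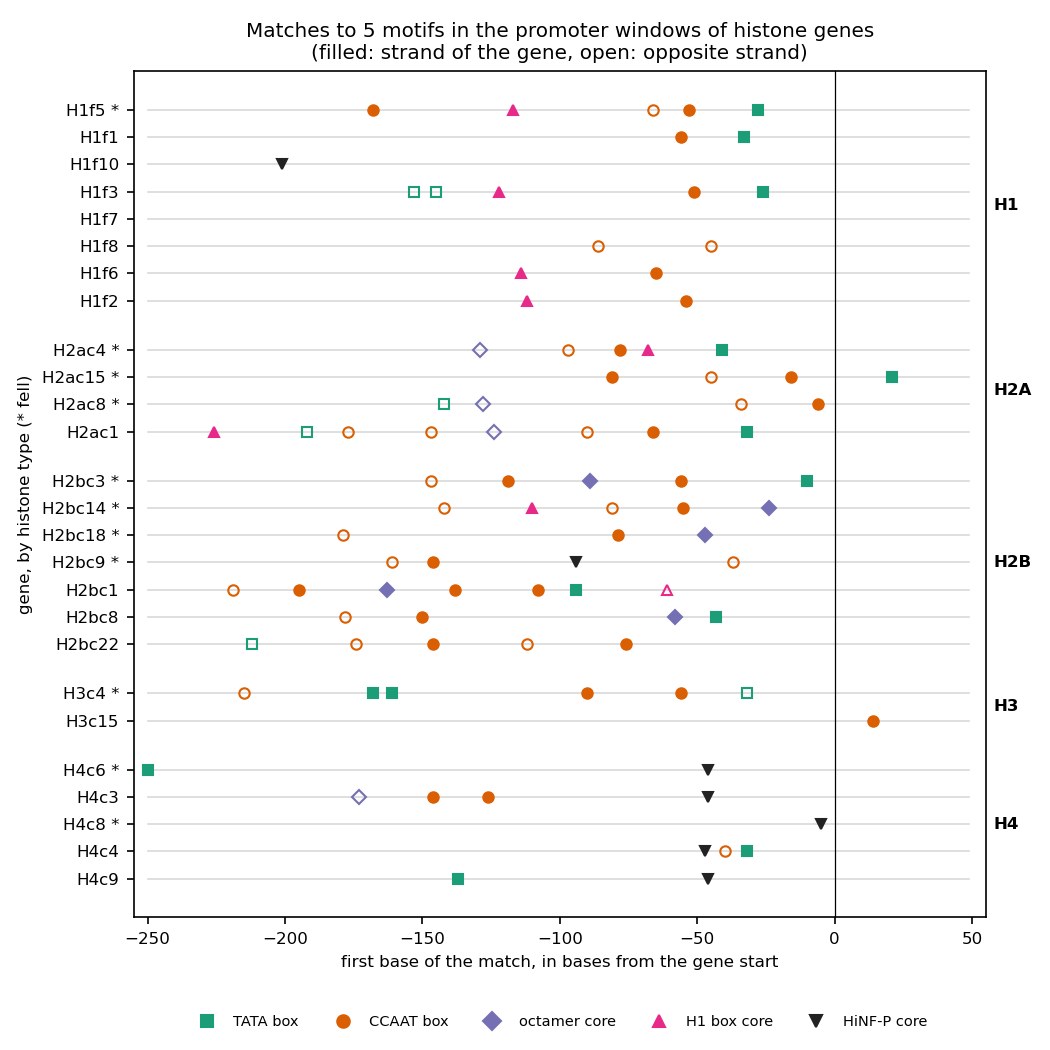
Matches to 5 motifs in the promoter windows of 26 histone genes (vertical axis, by type), placed by the first base of the match in bases from the gene start (horizontal axis). Filled symbols lie on the strand of the gene and open symbols on the opposite strand, and stars mark genes that fell. The HiNF-P core appears in all 5 H4 windows and the octamer core in 8 of the 11 H2A and H2B windows.

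By position, 23 of the 30 genes with a row of their own lie on chromosome 13, where the large histone cluster is found. Of these 10 fell, with a median log2 difference of -0.58. Of 4 genes on chromosome 3 H2bc18 and H4c14 fell, while H2bc21 and H3c15 did not pass. The genes on chromosomes 6 and 15 (H1f8, H1f10 and H1f7) are no members of the clusters, and none of these fell. Of 9 histone rows below the median row mean 2 fell, H2ac4 and H2ac8, and of the 38 others 25 fell. In all rows of the array, dim and bright, 2.15% fell. The 25 include the 10 H3 rows and the 5 H4 rows that share their symbols, so the 2 counts cannot be compared directly.

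Genes that act with the replication-dependent histones were lower only in part. For each list below, the share over 1 row for each gene of the array was 2.97% lower and 2.94% higher. No test over a list was run, and a single decrease in a short list does not stand out from that share. Among 10 measured replacement histones 1 fell and 9 did not pass, with a median of -0.35. H2ax, the variant that is phosphorylated at DNA breaks and whose transcript can also end in a stem-loop, fell with a log2 difference of -1.13 (SE 0.14, adjusted p = 0.00877). H2az1, a variant of active promoters, had a log2 difference of -0.66 (adjusted p = 0.146) and -0.69 in its other row, and passed without proliferation replicate 1 (adjusted p = 0.0299). H3f3a, which encodes H3.3, had 0.08 (adjusted p = 0.735), in a row below the median row mean, and H3f3b was not analysed here. Without differentiation replicate 1 H2ax was not called (adjusted p = 0.0598), and without proliferation replicate 1 the number of replacement histones that fell was 3.

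Of 9 measured genes that drive histone gene transcription 3 fell and 6 did not pass, with a median of -0.19. Those that fell were the cyclins E, which activate Cdk2 at the start of S phase, and E2f1, a transcription factor of S phase entry. Ccne2 had a log2 difference of -1.51 (SE 0.28, adjusted p = 0.0346), E2f1 one of -0.98 (SE 0.15, adjusted p = 0.0191) and Ccne1 one of -0.83 (SE 0.09, adjusted p = 0.00571). Npat, the substrate of cyclin E and Cdk2 at the histone clusters, was not among them, with -0.15 (adjusted p = 0.592), nor was its partner Casp8ap2, with -0.19 (adjusted p = 0.618). Leaving out differentiation replicate 1 or 2 or proliferation replicate 3 left 1 decrease. Ccne1 passed with each array left out, while E2f1 was lost in those cases (adjusted p from 0.0696 to 0.0959). Ccne2 was lost in the same cases and without differentiation replicate 3 (adjusted p from 0.0835 to 0.144).

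Over 1 row for each gene of the array 2.97% fell. Of 15 measured genes of 3′ end processing 1 fell and 14 did not pass, with a median of -0.12. The gene that fell was Slbp, the stem-loop binding protein (transcript cluster 10529299), with means of 8.26 in differentiating and 8.91 in proliferating enterospheres and a log2 difference of -0.65 (SE 0.08, adjusted p = 0.0107). Its other row had -0.75. Slbp was not called without differentiation replicate 1 or proliferation replicate 3 (adjusted p = 0.0608 to 0.0725). Lsm10 and Lsm11, of the U7 particle that is particular to histone transcripts, had log2 differences of -0.08 and 0.13. Of 9 genes of translation and decay of histone transcripts 0 passed in limma. At an unadjusted p under 0.05 there was 1 of the 9, the translation factor Mif4gd, a share no larger than that of all rows (7.72% lower plus 7.92% higher).

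Histone chaperones carry new histones to DNA. Of 25 measured 5 fell and 20 did not pass, with a median of -0.21. Asf1b, a carrier of H3 and H4, had the lowest value, a log2 difference of -1.83 (SE 0.18, adjusted p = 0.00488). Its close relative Asf1a had -0.10 (adjusted p = 0.754). Chaf1b, a subunit of the chromatin assembly factor CAF-1, and Mcm2, a helicase subunit that binds H3 and H4, fell with log2 differences of -1.29 and -1.09 (adjusted p = 0.0228 and 0.00973). Mms22l and Tonsl, which form a complex at replication forks, fell with log2 differences of -0.75 and -0.69 (adjusted p = 0.0377 and 0.0378). The chaperones of the replacement histone H3.3 were not among them: Hira, Ubn1, Ubn2, Cabin1, Daxx and Atrx had log2 differences between -0.21 and 0.18. Leaving out an array left 1 called chaperone (differentiation replicate 1), 2 (differentiation replicate 2 or 3 or proliferation replicate 3), 3 (proliferation replicate 2) or 6 (proliferation replicate 1). Asf1b passed with each array left out. Chaf1b was lost without any 1 differentiation array or proliferation replicate 3 (adjusted p from 0.0689 to 0.112), and Mcm2 without differentiation replicate 1 (adjusted p = 0.0596). Mms22l (adjusted p from 0.0534 to 0.161) and Tonsl were lost with any array left out except proliferation replicate 1.

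Of 32 genes of the replication fork 13 fell and 19 did not pass, with a median of -0.58. Rrm2, which makes deoxyribonucleotides, Pole, a DNA polymerase, and the helicase subunits Mcm3 and Mcm5 fell with log2 differences of -2.07, -1.72, -1.38 and -1.27 (adjusted p from 0.00645 to 0.00821). Leaving out an array left 2 decreases (differentiation replicate 1), 6 (differentiation replicate 2 or 3), 5 (proliferation replicate 3), 9 (proliferation replicate 2) or 14 (proliferation replicate 1). Rrm2 and Mcm5 were lost without differentiation replicate 1 (adjusted p = 0.0511 and 0.0561), while Pole and Mcm3 passed with each array left out.

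**Figure D5:**
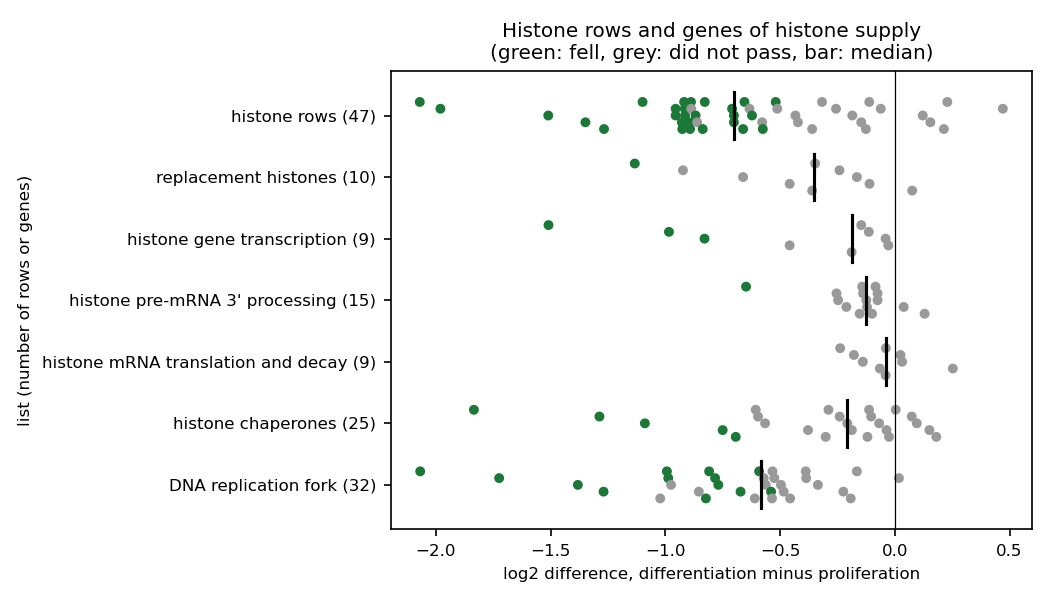
Log2 difference, differentiation minus proliferation, of the 47 histone rows and of the genes of 6 lists around histone supply (vertical axis, number of rows or genes in brackets, 3 arrays per group). Green points fell, grey points did not pass and bars are medians, and the vertical scatter carries no value. Medians are -0.70 for the histone rows, -0.58 for the replication fork and between -0.35 and -0.04 for the other lists, and 0 points rose.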

How the data were processed

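Total RNA of 6 enterosphere samples was measured on 1 GeneChip Mouse Gene ST array each. The kit named in the paper's methods (GeneChip WT cDNA Synthesis and Amplification) primes along the whole transcript, so transcripts without a poly(A) tail can be labelled. The authors summarised the scans with RMA, and the values they deposited are log2 intensities. The build and annotation version were not given in the sources used here. RMA usually includes quantile normalization, under which a shift of most transcripts at once is lost.

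Symbols came from the platform annotation, in which 21789 rows had 1 symbol, 1621 several and 12146 none here. Rows with several symbols were named by type and transcript cluster only. A list gene with several rows was represented by the row with the highest mean. The groups were compared with limma 3.58.1 (R 4.3.3, lmFit and eBayes, two-sided, 2.83 prior degrees of freedom), with Benjamini-Hochberg adjustment over 35556 rows and a threshold of 0.05. Arrays carry no counts, so their number and spread limit the precision, and no detection call was used. The fit was tested on simulated data with 200 changed rows. It recovered 22.4% of the changes of 1.5-fold, 64.2% of those of 2-fold and 89.4% of those of 4-fold. A row that did not pass can therefore still have changed. In each type the rule named up to 4 rows with 1 symbol that fell most, any row called against its type and the 2 brightest that did not pass, and in each list up to 4 called genes and fixed genes such as Slbp. Other histone genes were named to account for every row. The members, lists and rules were chosen with earlier results of these data known. Alternatives were a replicate block, limma-trend, cyclic loess, median centring, array weights, a filter on dim rows, other member definitions, the methods' t-test, limma without correction and leaving out each array. Some of the member definitions and the counts of the lists were added after seeing the data.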

Additional observations from a re-analysis of the deposited data

How the results depend on the processing

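Deviations of same-numbered arrays correlated at -0.003, 0.09 and -0.074. With 3 arrays per group such values cannot show whether the arrays are paired, and the labels do not say it. With the replicate number as a block 664 rows of the array were called. Among the histone rows it called 17 in all, 0 of H1 and 2 of H4, with 0 of the genes of 3′ processing. Of the 40 named genes 9 lost their call with the block (H1f5, H2ac8, H2bc9, H3c4, H4c6, H4c14, H4c8, Slbp and Mms22l, adjusted p from 0.0513 to 0.108). Array weights called 12721 rows, with 4 of H1 and 7 of H2B lower, and of the lists 8 replacement histones, 5 transcription genes, 8 genes of 3′ processing, 1 of translation and decay, 13 chaperones and 30 fork genes. After Benjamini-Hochberg adjustment the methods' t-test called 253 rows, 10 of them histone rows, with 0 of H1, H2A, H2B or H4. Without correction and at 1.5-fold it called 2 H1 rows, as did limma. With dim rows left out the histone medians were -0.832 in all, -0.36 for H1 and -0.67 for H2B, with 2 H1 rows lower, 1 H2A row and 3 replacement histones. Limma-trend called 2 H1 rows and 2 replacement histones. Counting only rows with 1 symbol, or 1 row per gene, gave 12 decreases and a median of -0.516, and averaging rows of the same symbols gave 14 and -0.547, where fewer rows enter by construction. After cyclic loess H3c4 was not called (adjusted p = 0.051). Leaving out 1 array at a time gave 294 to 1297 called rows of the array, 11 to 25 histone rows, 0 to 1 of H1, 0 to 2 of H2A, 1 to 4 of H2B, 10 of H3 throughout and 0 to 8 of H4. For the lists it gave 0 to 3 replacement histones, 1 to 3 transcription genes, 0 to 1 genes of 3′ processing, 1 to 6 chaperones and 2 to 14 fork genes. The sign turned for H3c15 alone among the named genes, whose log2 difference ranged from -0.44 to 0.071, at 0.05 without differentiation replicate 1 and 0.071 without proliferation replicate 3. The cause of these differences was not tested. Histone rows called lower outnumbered those called higher under every setting run, and array weights called 3 of them higher, the dim row filter 1 and leaving out proliferation replicate 2 also 1.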
